A study of Rattus norvegicus with 20 samples.

Results

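A set of 9 EF-hand genes of neurons was followed over all arrays of the series: the neuronal calcium sensors Hpca, Hpcal1, Hpcal4, Vsnl1, Ncald and Ncs1, and the calcium-binding proteins Pvalb, Calb1 and Calb2. They were taken by name, as every probe set annotated to 1 of these genes alone, and they are 9 of 14217 genes that a probe set names alone. They have 17 probe sets, of which 16 passed the filter on low signal (a mean log2 signal above 6.62) and were tested. The remaining one, Ncs1 1380492_at, is given as values only. The rats were Sprague Dawley males aged 20 weeks and weighing 250 to 300 g, the tissue carries the label brain cortex, and each rat gave total RNA for 1 Affymetrix array. The 10 control rats breathed pure oxygen for 15 minutes, and the other 10 breathed 2% isoflurane (1.4 MAC, a unit of anaesthetic potency) in oxygen for the same time. Both groups recovered for 6 hours before the brain was taken. Values are log2 of the deposited MAS5 signal, a probe set's brightness after each array was scaled to a common mean, so levels can be compared between arrays but not between probe sets.

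The EF-hand is a loop of the protein chain that holds a calcium ion. Sensors change shape when calcium binds: hippocalcin (Hpca) and several relatives expose a lipid anchor and move to membranes, where they act on receptors, channels and enzymes. Parvalbumin (Pvalb), calbindin-D28k (Calb1) and calretinin (Calb2) are known mainly as buffers that shape calcium transients. In the cerebellum Purkinje cells hold calbindin and parvalbumin and granule cells hold calretinin, whereas in the cortex all 3 buffers mark classes of interneurons. Hippocalcin is known for its abundance in the pyramidal neurons of hippocampus and cortex.

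The arrays were described in 2 sets by Pcp2, a gene of cerebellar Purkinje cells above or below a log2 signal of 12. The nearest arrays on either side of this value were isoflurane replicate 10, at a linear signal of 1632, and oxygen replicate 7, at 12436. Pcp2 was high on 11 arrays, those of isoflurane replicates 1, 3, 7, 8 and 9 with oxygen replicates 5 to 10. It was low on the other 9, those of isoflurane replicates 2, 4, 5, 6 and 10 with oxygen replicates 1 to 4. On the 11 arrays the data went against the label: all 6 tested markers of cerebellar granule cells lay above their range on the 9 arrays. Their marker sum was 15.25 to 15.65 against 9.71 to 12.47. Here and below a marker sum is the log2 of the added linear signals of a list, so its brightest genes weigh most. Of 6 tested markers of cortical projection neurons 5 lay below their range on the 9 arrays, with sums of 10.18 to 10.86 against 12.31 to 12.72. The filter on low signal used the mean over all arrays. Gabra6, Fat2, Zic1 and En2 (means of 5.30 to 6.57 on the 9 arrays) passed it only through the 11. Fezf2, Emx1, Rorb and Bcl11b (4.59 to 6.04 on the 11) passed it only through the 9. These counts of tested markers are thus partly set by the filter. In bulk tissue, fewer cells of a type and less RNA per cell cannot be told apart. Isoflurane replicates 2, 4, 5 and 6 stood apart within the low-Pcp2 set. Their log2 ratio of the 3' to the 5' beta-actin control probe set, a measure of RNA integrity, was 2.30 to 2.86, against 1.21 to 1.98 on the 4 oxygen arrays of that set and 1.21 on isoflurane replicate 10. The GAPDH control pair did not part them in this way: its log2 ratio was 0.236 to 0.326 on the 4 arrays, 0.297 to 0.477 on those oxygen arrays and 0.296 on isoflurane replicate 10. Their granule cell marker sum, 9.71 to 10.08, also lay below the 10.37 to 11.44 of those oxygen arrays and the 12.47 of isoflurane replicate 10. Marker sums of hippocampal or striatal neurons (12.34 to 12.77 against 12.86 to 13.40, and 13.43 on isoflurane replicate 10) and of choroid plexus (8.96 to 9.32 against 9.91 to 13.72, and 10.1 on replicate 10) were lower on the 4 arrays too. The hippocampal or striatal genes went both ways, by isoflurane minus oxygen within the low-Pcp2 set, replicate 10 included. Wfs1 (-1.24) and Ppp1r1b (-0.49), the brightest of the list, were lower. Prox1 (0.52), Drd1 (0.34), Adora2a (0.19) and Drd2 (0.041) were higher. Marker sums of interneurons were higher (14.04 to 14.19 against 13.89 to 13.97, and 14.05 on replicate 10). In that list Sst went the other way (-0.53, isoflurane minus oxygen within the low-Pcp2 set). Gad1 (0.35), Gad2 (1.10), Kcnc1 (0.66), Npy (0.24), Dlx1 (0.13) and Vip (0.016) were higher. Purkinje cell sums were higher too (13.77 to 13.89 against 13.63 to 13.76, and 14.07 on replicate 10). Both lists hold Gad1, and Pcp2 itself was lower on the 4 arrays (4.46 to 5.93 against 7.63 to 8.78). Oxygen replicates 4, 5 and 7 and isoflurane replicate 9 had the 4 lowest signals at the 99.9th percentile, from 12193 to 14318 against at least 17105 elsewhere. The isoflurane comparisons are also given without these arrays, and the set differences also within oxygen rats alone.

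Promoter sequence (the 250 bases before the start of the gene, RefSeq, build GRCr8) was at hand for 6 of the 9 genes. The windows of 2 genes with higher signal on the high-Pcp2 arrays, Hpcal1 and Pvalb, and of 2 with higher signal on the low-Pcp2 arrays, Hpcal4 and Ncs1, are shown 5' to 3', because these genes parted the arrays in opposite directions. A set of 6 motifs was searched on both strands: the TATA box TATAAA, the box CCAAT, the GC box GGGCGG, the E-box CACGTG, a further E-box CAGCTG and the cyclic AMP response element TGACGTCA. Capitals mark each match in either orientation, and no matches overlapped in these windows.
Hpcal1, chr6:46206644-46206893, plus strand: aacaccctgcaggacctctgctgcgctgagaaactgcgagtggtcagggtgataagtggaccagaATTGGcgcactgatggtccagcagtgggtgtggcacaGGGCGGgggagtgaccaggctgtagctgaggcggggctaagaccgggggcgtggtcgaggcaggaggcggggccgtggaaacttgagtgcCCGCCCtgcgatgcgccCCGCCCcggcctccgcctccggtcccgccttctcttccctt
Pvalb, chr7:111666290-111666539, minus strand: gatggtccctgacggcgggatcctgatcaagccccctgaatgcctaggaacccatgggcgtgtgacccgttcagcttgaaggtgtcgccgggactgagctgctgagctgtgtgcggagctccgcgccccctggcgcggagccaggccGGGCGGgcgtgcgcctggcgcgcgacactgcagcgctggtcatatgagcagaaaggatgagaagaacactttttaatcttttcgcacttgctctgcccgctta
Hpcal4, chr5:140739658-140739907, plus strand: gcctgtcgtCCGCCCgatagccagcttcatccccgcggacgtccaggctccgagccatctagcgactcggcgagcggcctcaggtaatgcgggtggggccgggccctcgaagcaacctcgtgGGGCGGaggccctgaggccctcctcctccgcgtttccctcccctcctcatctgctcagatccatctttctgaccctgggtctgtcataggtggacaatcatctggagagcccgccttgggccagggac
Ncs1, chr3:34920699-34920948, plus strand: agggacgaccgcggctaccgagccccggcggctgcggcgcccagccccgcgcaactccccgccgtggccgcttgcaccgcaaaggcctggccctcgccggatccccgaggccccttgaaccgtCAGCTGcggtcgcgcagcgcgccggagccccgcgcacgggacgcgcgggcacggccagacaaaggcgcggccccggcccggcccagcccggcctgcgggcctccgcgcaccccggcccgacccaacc
Hpcal1 held 3 copies of GGGCGG, the GC box, and 1 CCAAT, read here as its reverse. Hpcal4 held 2 GC boxes and Pvalb 1, whereas Ncs1 held none and had 1 CAGCTG. Among 33469 promoter windows of this length, 30.5% held GGGCGG, 34.0% CCAAT, 11.97% CAGCTG, 12.9% TATAAA, 5.59% CACGTG and 1.59% TGACGTCA. G and C made up 67.2% of the Hpcal1 window, 62.8% of Pvalb, 66.4% of Hpcal4 and 80.8% of Ncs1, against a median of 51.2% over all windows. Of the windows not shown, Hpca, also higher on the low-Pcp2 arrays, was at 50.8%, with 1 CCAAT and no GC box. Vsnl1 was at 60.8%, with 1 GC box. GC boxes stood in windows of genes of both directions, and neither the TATA box nor CACGTG nor the cyclic AMP response element in any of the 6 windows.

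Levels of the 9 genes parted along the Pcp2 split in both directions. By brightest probe set Hpcal1, Pvalb, Calb1 and Calb2 were higher on every high-Pcp2 array than on any low-Pcp2 array, Hpca, Hpcal4, Ncald and Ncs1 were lower on every one, and Vsnl1 overlapped. Counted over the 16 tested probe sets, 5 lay wholly above and 6 wholly below, where 9.47% and 9.34% of all 18625 tested probe sets did so. The median size of the difference was 2.23 on the log2 scale, against 0.39 over all tested probe sets, and 10 of the 16 differed by more than 2, against 3.77% of all. These differences are descriptions without a test, since the sets were made from a probe set of the same arrays.

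**Figure D1:**
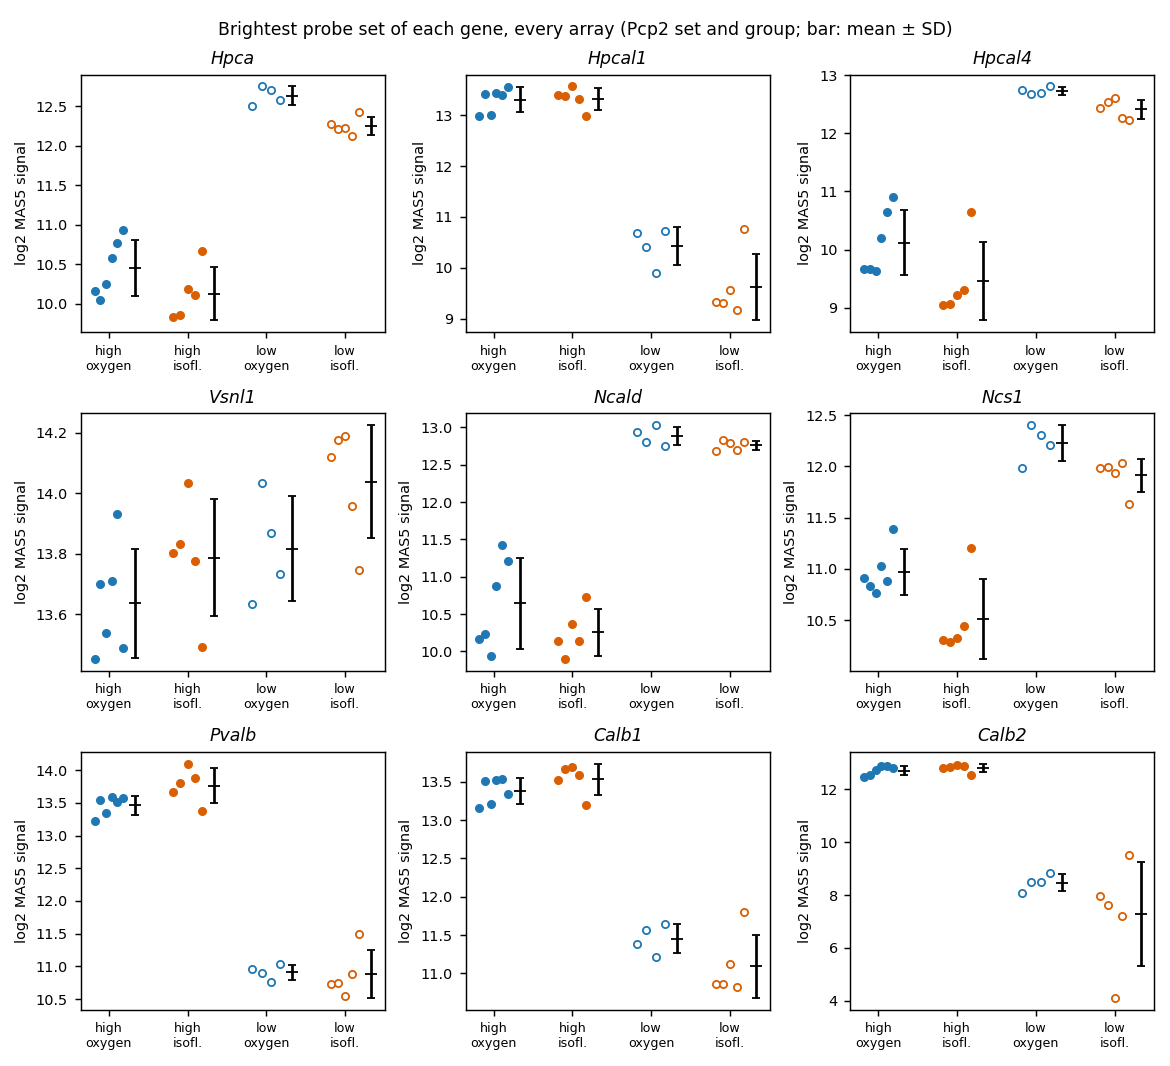
Log2 MAS5 signal (y axis) of the brightest probe set of each gene on every array, by Pcp2 set and group (x axis); points are arrays, filled for high Pcp2 and open for low Pcp2, and bars are mean ± SD. Calb2, Hpcal1, Pvalb and Calb1 are high on the 11 high-Pcp2 arrays, Hpca, Hpcal4, Ncald and Ncs1 on the 9 low-Pcp2 arrays, and Vsnl1 spans 13.45 to 14.19 with overlap.

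Among the buffers, Calb2 showed the widest separation. Calretinin signal ran from 12.45 to 12.94 (median 12.82) on the 11 high-Pcp2 arrays and from 4.11 to 9.50 (median 8.06) on the 9 others, a difference of 4.94 between the measured means and of 2.94 between the nearest arrays. The low level was spread unevenly: isoflurane replicate 5 was at 4.11, isoflurane replicates 6, 4 and 2 at 7.19, 7.62 and 7.98, and isoflurane replicate 10 at 9.50. Detection calls were not used here, so a dim value cannot be told from background and no fold is given. Pvalb ran from 13.23 to 14.10 (median 13.57) on the high-Pcp2 arrays and from 10.55 to 11.50 (median 10.89) on the low, a difference of 2.71. Calb1 ran from 13.16 to 13.70 (median 13.52) against 10.82 to 11.80 (median 11.22), a difference of 2.20. Of 7 tested interneuron markers, 4 were lower on every high-Pcp2 array and 1 higher, and their marker sum overlapped (13.84 to 14.24 on the high-Pcp2 arrays and 13.89 to 14.19 on the low). Vip and Dlx1 passed the filter only through the low-Pcp2 arrays (means of 6.49 and 5.38 on the high). On the low-Pcp2 arrays isoflurane replicate 10 had the highest value of all 3 buffers, and it also had the highest granule cell marker sum and Pcp2 signal of that set.

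Hpcal1, a sensor also called VILIP-3 and known from Purkinje cells, ran with the buffers rather than with its closest relatives. The 1372179_at signal lay between 12.98 and 13.58 (median 13.40) on the high-Pcp2 arrays and between 9.16 and 10.77 (median 9.90) on the low, a difference of 3.34. Its other probe set, 1369562_at, ran from 12.43 to 12.92 against 6.36 to 9.73, a difference of 4.75 between the measured means. On both, isoflurane replicates 2, 4, 5 and 6 were the 4 lowest arrays (at most 9.56 and 7.08) and isoflurane replicate 10 the highest of the low-Pcp2 set.

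Hpca, Hpcal4 and Ncald took the opposite direction. Hippocalcin signal ran from 9.83 to 10.93 (median 10.19) on the high-Pcp2 arrays and from 12.12 to 12.75 (median 12.43) on the low, a difference of -2.12 or 4.34-fold. Ncald, neurocalcin delta, a sensor of receptor guanylate cyclases, ran from 9.90 to 11.42 (median 10.23) against 12.69 to 13.03 (median 12.80) on 1372953_at, a difference of -2.35. Its second probe set, 1392581_at, overlapped between the sets (7.51 to 9.16 against 8.27 to 10.60) with a difference of -1.03. All 3 probe sets of Hpcal4, a hippocalcin-like sensor also called VILIP-2, lay wholly lower on the high-Pcp2 arrays, by -2.74 (1379907_at), -3.31 (1375765_at) and -2.26 (1387639_at). Hpcal4 1379907_at ran from 9.05 to 10.91 (median 9.66) on the high-Pcp2 arrays and from 12.22 to 12.81 (median 12.61) on the low. Within the high-Pcp2 set, oxygen replicates 8, 9 and 10 and isoflurane replicate 9 had the 4 highest values of Hpca (10.58 to 10.93), Ncald 1372953_at (10.73 to 11.42) and Hpcal4 1379907_at (10.21 to 10.91). Their cortical projection neuron sums were 10.83, 10.86, 10.68 and 10.80, against 10.18 to 10.73 on the other 7 arrays of the set. Neurod6 was the brightest of these markers on the high-Pcp2 arrays (mean 10.05, with Cux2 next at 7.75), and it overlapped between the sets. The part of these sums in the 3 genes' levels was not tested.

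Ncs1, the frequenin sensor that regulates a phosphatidylinositol kinase, and Vsnl1, or VILIP-1, differed least between the sets. The brightest Ncs1 probe set, 1374103_at, ran from 10.28 to 11.39 (median 10.83) on the high-Pcp2 arrays and from 11.63 to 12.40 (median 11.99) on the low, a difference of -1.29, and the sets were 0.25 apart at their nearest arrays. The other Ncs1 probe sets overlapped, with differences of 0.35 (1396382_at) and -0.11 (1387685_at), and -1.20 for the dim 1380492_at, whose values ran from 0.98 to 6.72. Vsnl1 was bright everywhere: 1368854_at ran from 13.45 to 14.03 on the high-Pcp2 arrays and from 13.63 to 14.19 on the low (difference -0.24), and 1368853_at from 11.74 to 13.19 against 11.70 to 12.46 (difference 0.37). The 2 Vsnl1 differences had opposite signs, and the ranges overlapped for both.

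The direction of the set difference was the same in oxygen and in isoflurane rats for every member probe set but 1. Ncs1 1387685_at differed by -0.74 in oxygen rats, with no overlap, and by 0.38 in isoflurane rats, with overlap. Differences were smaller in oxygen rats for Calb2 (4.24 against 5.53), Hpcal1 1369562_at (3.99 against 5.37) and Hpcal4 1375765_at (-2.62 against -4.02). They were larger in oxygen rats for Ncald 1392581_at (-1.55 against -0.60). Hpca differed by -2.18 in oxygen and -2.12 in isoflurane rats.

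**Figure D2:**
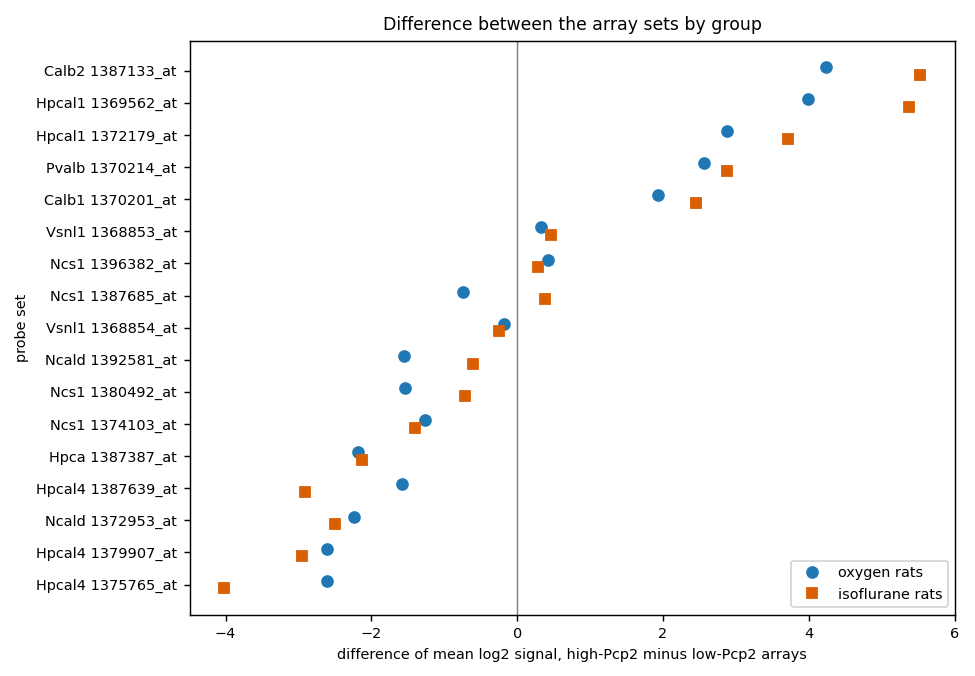
Difference of mean log2 signal between high-Pcp2 and low-Pcp2 arrays (x axis) for each of the 17 member probe sets (y axis), with circles for oxygen rats (6 high, 4 low arrays) and squares for isoflurane rats (5 and 5). Probe sets run from Hpcal4 1375765_at, at -2.62 and -4.02, to Calb2, at 4.24 and 5.53.

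The comparison of the study's groups asked which members differed 6 hours after isoflurane, with the array set as a block. Ncs1 was the member that passed. In the high-Pcp2 set, Ncs1 1374103_at was 10.76 to 11.39 (median 10.89) on the 6 oxygen arrays and 10.30, 10.28, 10.32, 10.44 and 11.20 on isoflurane replicates 1, 3, 7, 8 and 9. In the low-Pcp2 set it was 11.99, 12.40, 12.30 and 12.21 on oxygen replicates 1 to 4 and 11.98, 11.99, 11.94, 12.03 and 11.63 on isoflurane replicates 2, 4, 5, 6 and 10. So 9 of 10 isoflurane arrays lay below the oxygen mean of their set, isoflurane replicate 9 being the exception, with overlapping ranges. Ncs1 1374103_at fell by 0.39 (change -0.39 ± 0.11 SE, adjusted p = 0.0347 in limma), while the gene's other tested probe sets were at -0.57 (1387685_at, adjusted p = 0.108) and 0.040 (1396382_at, adjusted p = 0.847).

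That was 1 of 16 member probe sets, where 7.37% of all tested probe sets passed (480 higher and 892 lower, or 304 and 1175 with arrays centred on their medians). The median over the 9 genes, by brightest probe set, was -0.35, beside -0.022 over all 10315 genes. Without the block no member passed, where 0.397% of all did. In that limma fit 2 of 16 members and 2941 of 18625 probe sets were at an unadjusted p under 0.05. Hpca was at -0.35 ± 0.11 SE (adjusted p = 0.0576) and Hpcal4 1379907_at at -0.51 ± 0.19 SE (adjusted p = 0.0976), each below the oxygen mean of its set on 9 of 10 isoflurane arrays. Vsnl1 was at 0.18 ± 0.081 SE (1368854_at, adjusted p = 0.151) and above that mean on 8 of 10. Pvalb was at 0.15 ± 0.11 SE, Calb1 at -0.078 ± 0.12 SE and Calb2 at -0.48 ± 0.42 SE (adjusted p of 0.385, 0.714 and 0.485). Leaving out single arrays moved Pvalb between 0.094 and 0.19 (lowest without isoflurane replicate 10), Calb1 between -0.14 (without isoflurane replicate 10) and -0.030 (without oxygen replicate 4) and Calb2 between -0.68 (without isoflurane replicate 10) and -0.11 (without isoflurane replicate 5). The Ncs1 call held in 10 of 15 alternatives, over which its adjusted p ran from 0.00331 to 0.768. It was lost without isoflurane replicates 2, 4, 5 and 6, where the change was -0.49 and no probe set of the array passed (adjusted p = 0.146). It was also lost when any 1 of 11 arrays was left out (oxygen replicates 2, 3, 4 or 10, or isoflurane replicates 1, 2, 3, 4, 5, 7 or 8), with adjusted p from 0.0502 to 0.0677. With the 3'/5' ratio (the mean of the beta-actin and GAPDH log2 ratios) as a covariate the Ncs1 change was -0.44 (adjusted p = 0.00867). Leaving out oxygen replicate 5 or 6 or isoflurane replicate 9 or 10 brought Hpca past the threshold (adjusted p from 0.00907 to 0.0478), leaving out isoflurane replicate 9 did so for Hpcal4 1379907_at (adjusted p = 0.0101), and leaving out isoflurane replicate 10 for Ncs1 1387685_at (adjusted p = 0.0428).

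Within the high-Pcp2 arrays alone no member passed the limma test, and neither did any of the 18625 probe sets (0.0%), with 4 members and 2376 probe sets at an unadjusted p under 0.05. The largest differences were in Hpcal4. Hpcal4 1375765_at was 7.24 to 8.84 on the 6 oxygen arrays and 6.95, 7.22, 7.37, 7.17 and 7.74 on isoflurane replicates 1, 3, 7, 8 and 9, each below the oxygen mean, a difference of -0.79 ± 0.29 SE (adjusted p = 0.349). Hpcal4 1379907_at was 9.63 to 10.91 on oxygen arrays and 9.05, 9.07, 9.22, 9.30 and 10.64 on the same isoflurane arrays, a difference of -0.66 ± 0.31 SE (adjusted p = 0.395). Here 4 isoflurane arrays lay below every oxygen array and isoflurane replicate 9 near the top. Pvalb was at 0.30 ± 0.12 SE (adjusted p = 0.352), Ncs1 1374103_at at -0.46 ± 0.16 SE (adjusted p = 0.345) and Hpca at -0.33 ± 0.18 SE (adjusted p = 0.445).

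Without isoflurane replicate 9, 1086 probe sets (5.83%) passed in the high-Pcp2 set, among them Ncs1 1374103_at at -0.63 (adjusted p = 0.0113), Hpcal4 1379907_at at -0.96 (adjusted p = 0.0370) and Pvalb at 0.39 (adjusted p = 0.0378). Without this array and oxygen replicates 5 and 7, which shared its low top signals, 405 (2.17%) passed, with all 3 Hpcal4 probe sets (-1.31, -1.19 and -0.96) and Ncs1 1374103_at (-0.69) among them. Over all its alternatives the adjusted p of Hpcal4 1379907_at ran from 0.0297 to 0.804, and that of Ncs1 1374103_at from 0.0178 to 0.715.

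Within the low-Pcp2 arrays 4 member probe sets passed, 3 lower and 1 higher, where 18.6% of all did (2087 higher and 1382 lower). Hpca was 12.50, 12.75, 12.71 and 12.58 on oxygen replicates 1 to 4 and 12.28, 12.21, 12.22, 12.12 and 12.43 on isoflurane replicates 2, 4, 5, 6 and 10. The groups did not overlap, and Hpca fell by 0.39 (change -0.39 ± 0.092 SE, adjusted p = 0.0183). Hpcal4 1379907_at was 12.74, 12.67, 12.70 and 12.81 on oxygen arrays and 12.44, 12.54, 12.60, 12.26 and 12.22 on isoflurane arrays, again without overlap, and fell by 0.32 (change -0.32 ± 0.099 SE, adjusted p = 0.0464). Ncs1 1387685_at was 9.75, 8.71, 8.89 and 8.84 against 7.71, 7.55, 7.40, 7.57 and 9.11, so that 4 isoflurane arrays lay below every oxygen array and isoflurane replicate 10 within their range; it fell by 1.18 (change -1.18 ± 0.34 SE, adjusted p = 0.0349). Beside these falls stand lower hippocampal or striatal, granule cell and choroid plexus marker sums of isoflurane replicates 2, 4, 5 and 6. The interneuron and Purkinje cell sums of these arrays were higher. Single genes of the hippocampal or striatal list and of the interneuron list went both ways, as given above. The part of these sums in the falls was not tested.

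The rise was in another probe set of Hpcal4. Hpcal4 1375765_at was 10.95, 10.25, 11.13 and 10.43 on oxygen arrays and 11.43, 11.50, 11.44, 11.34 and 10.82 on isoflurane arrays, and rose by 0.62 (change 0.62 ± 0.20 SE, adjusted p = 0.0494), while 1379907_at of the same gene fell. With arrays centred on their medians, which moved the median of all tested probe sets by -0.21, all 6 members that passed were lower (28.2% of all probe sets passed), the rise was 0.41 (adjusted p = 0.114) and the split over all probe sets was 1467 higher and 3782 lower. With the 3'/5' ratio as a covariate none of these 4 passed: Hpca was at -0.34 (adjusted p = 0.0753), Hpcal4 at -0.38 (adjusted p = 0.0623) and 0.54 (adjusted p = 0.162), and Ncs1 1387685_at at -0.56 (adjusted p = 0.0650), while Ncs1 1374103_at passed at -0.47 (adjusted p = 0.0332).

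Single arrays changed these calls. Without isoflurane replicate 10, 8 members and 33.6% of all probe sets passed, among the members Hpcal1 at -1.10 (1372179_at, adjusted p = 0.000790) and -1.85 (1369562_at, adjusted p = 0.000194), Calb1 at -0.54 (adjusted p = 0.00435) and Ncald 1392581_at at -1.27 (adjusted p = 0.00590). Hpcal4 1379907_at and Ncs1 1387685_at passed only in that fit, not when any of the other 8 arrays was left out (adjusted p from 0.0501 to 0.106 and from 0.0565 to 0.0842). Hpca was lost without oxygen replicate 2 or 3 or isoflurane replicate 4 (adjusted p from 0.0504 to 0.0526). Hpcal4 1375765_at was lost without oxygen replicate 2 or 4 or isoflurane replicate 2, 4, 5 or 6 (adjusted p from 0.0962 to 0.131). Without oxygen replicate 1, Ncs1 1374103_at (-0.39, adjusted p = 0.0321) and Hpcal4 1387639_at (0.91, adjusted p = 0.0487) passed. Over the alternatives other than leaving out single arrays, the adjusted p of Hpca ran from 0.00137 to 0.103, that of Hpcal4 1379907_at from 0.0136 to 0.439, that of 1375765_at from 0.00405 to 0.162 and that of Ncs1 1387685_at from 0.000665 to 0.0650.

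**Figure D3:**
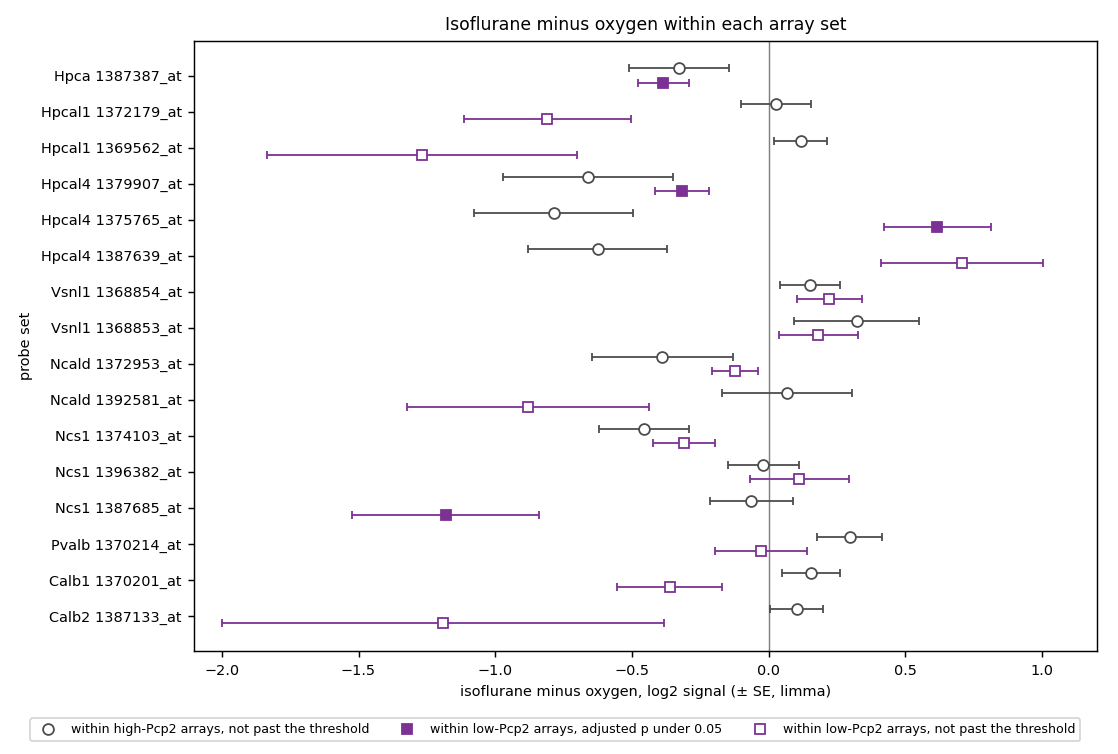
Isoflurane minus oxygen in log2 signal (x axis, ± SE from limma) for the 16 tested member probe sets (y axis), with circles within the 11 high-Pcp2 arrays and squares within the 9 low-Pcp2 arrays; filled symbols have an adjusted p under 0.05. The 4 filled squares are Hpca (-0.39), Hpcal4 1379907_at (-0.32) and 1375765_at (0.62) and Ncs1 1387685_at (-1.18), and 2 Hpcal4 probe sets lie on opposite sides of 0 in the 2 sets.

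Whether the isoflurane difference itself differed between the sets was tested in 1 fit over all 20 arrays. Of the members, 2 Hpcal4 probe sets passed, where 10.2% of all tested probe sets did (480 higher and 1417 lower; 632 and 1101 after quantile normalization, 2843 and 1059 with arrays centred on their medians). Hpcal4 1375765_at was at -0.79 on the high-Pcp2 arrays and 0.62 on the low, a difference of -1.40 ± 0.39 SE (adjusted p = 0.0267). Hpcal4 1387639_at was at -0.63 and 0.71, a difference of -1.33 ± 0.41 SE (adjusted p = 0.0419). The brightest Hpcal4 probe set, 1379907_at, was at -0.66 and -0.32, a difference of -0.34 ± 0.38 SE (adjusted p = 0.592), so the gene's probe sets gave different answers. Hpcal1 differed by 0.84 ± 0.33 SE (1372179_at, adjusted p = 0.111) and Calb1 by 0.52 ± 0.22 SE (adjusted p = 0.136). Neither Hpcal4 call held with the 3'/5' ratio as a covariate (-1.34 and -1.71, adjusted p of 0.113 and 0.0539) or without isoflurane replicates 2, 4, 5 and 6 (-0.92 and -1.34, adjusted p of 1.00 for both). Over all alternatives their adjusted p ran from 0.000812 and 0.00648 upward to these values. The first was lost without oxygen replicate 2 or 4 or isoflurane replicate 2 or 4 (adjusted p from 0.0523 to 0.0626), and the second held without oxygen replicate 1, 3, 5 or 7 or isoflurane replicate 5 or 10 alone and was lost without any of the other 14 (adjusted p from 0.0505 to 0.0995). Without isoflurane replicate 10, 8 members and 23.1% of all probe sets passed, Hpcal1 1369562_at with a difference of 1.97 (adjusted p = 7.62e-06).

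Probe sets of 1 gene moved together for some genes and not for others. Across the 20 arrays, with values centred within each set, the Pearson correlation was 0.88 for the pair of Hpcal1 probe sets and 0.52 for the Vsnl1 pair. For Hpcal4 it was 0.64, 0.28 and 0.84 over its 3 pairs, for Ncald 0.37, and for Ncs1 -0.18, 0.03 and 0.17 over its tested pairs. These are descriptions over 20 arrays that share sets and groups. On isoflurane replicates 2, 4, 5 and 6, Ncs1 1387685_at was 7.40 to 7.71, below the 8.71 to 9.75 of the oxygen arrays of the set and the 9.11 of isoflurane replicate 10. On the same 4 arrays Ncs1 1374103_at, 11.94 to 12.03, overlapped the oxygen range of 11.99 to 12.40. Ncald showed the same contrast: 1392581_at was 8.27 to 8.50 against 8.95 to 10.60 on oxygen arrays and 10.35 on isoflurane replicate 10, while 1372953_at was 12.69 to 12.83 against 12.75 to 13.03. Hpcal4 1375765_at was 11.34 to 11.50, above the oxygen arrays (10.25 to 11.13) and isoflurane replicate 10 (10.82). Of the 16 tested member probe sets, 8 lay wholly below and 1 wholly above the oxygen range on these 4 arrays, where 16.7% and 17.0% of all tested probe sets did. The same 4 arrays had the highest beta-actin 3'/5' ratios, while their GAPDH ratios did not stand above the others. Their mean of both ratios was 1.28 to 1.59, against 0.755 to 1.23 on the oxygen arrays of the set and 0.754 on isoflurane replicate 10. As a covariate this mean cannot be fully told apart from the group here, and its part was not tested. In the fit with it the low-Pcp2 difference was -0.24 in place of -1.27 for Hpcal1 1369562_at and -0.093 in place of -0.88 for Ncald 1392581_at. It was -0.56 in place of -1.18 for Ncs1 1387685_at, but 0.94 in place of 0.71 for Hpcal4 1387639_at. That of Ncs1 1374103_at grew in size, as given above.

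**Figure D4:**
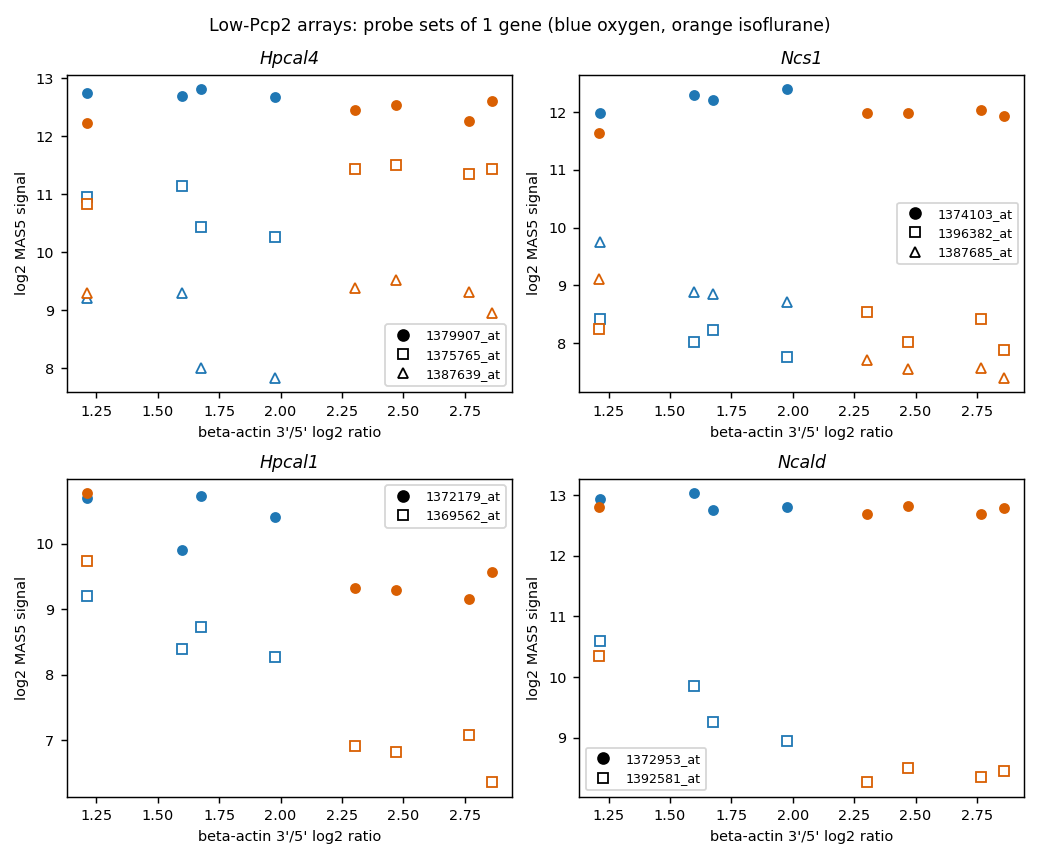
Log2 MAS5 signal (y axis) of the tested probe sets of Hpcal4, Ncs1, Hpcal1 and Ncald against the beta-actin 3'/5' log2 ratio (x axis) on the 9 low-Pcp2 arrays; colours are groups and symbols are probe sets. Isoflurane replicates 2, 4, 5 and 6 lie at ratios of 2.30 to 2.86, where Ncs1 1387685_at, Ncald 1392581_at and both Hpcal1 probe sets are low and Hpcal4 1375765_at is high.

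Other calcium-binding and calcium-handling genes differed less between the sets than the 9 members, by median size of the set difference: 2.35 for the brightest probe sets of the members, 0.95 for 4 tested genes of 7 in the rest of the sensor family, 0.46 for 2 of 9 calmodulin and CaBP genes, 0.57 for 10 of 12 S100 genes and 0.64 for 10 of 15 other cytosolic EF-hand genes. It was 1.37 for 4 calmodulin-binding IQ-motif genes and 0.59 for 8 calcium pumps and exchangers, beside 0.34 over all 10315 genes. In the sensor family Kcnip2, a potassium channel subunit, was lower on the high-Pcp2 arrays by -2.41, and it was the 1 gene of its 4 past the threshold after isoflurane (block fit, -0.51 ± 0.15 SE, adjusted p = 0.0397). Neither of the 2 tested calmodulin and CaBP genes, Calm2 and Cabp1, passed in the 4 fits. None of the 10 S100 genes passed in these fits, and S100a9 had their largest set difference (1.82). Of the other EF-hand genes, Efhd2 fell by 0.43 (change -0.43, adjusted p = 0.0198) in the block fit and by 0.64 (change -0.64, adjusted p = 0.0138) within the low-Pcp2 arrays, and Necab2 passed in the block fit (-0.43, adjusted p = 0.0355), where 2 of 10 passed. Their largest set difference was in Necab3 (-3.31), and Tesc, or tescalcin, was the 1 gene whose isoflurane difference differed between sets (0.43, adjusted p = 0.0424). Nrgn, or neurogranin, which holds calmodulin in dendritic spines, had the largest difference of the IQ genes (-4.51), and Pcp4l1 rose within the low-Pcp2 arrays (0.51, adjusted p = 0.0499). Of the pumps and exchangers, the plasma membrane pump Atp2b3 had the largest set difference (1.25) and an isoflurane difference that differed between sets (-0.59, adjusted p = 0.0437), and the sodium-calcium exchanger Slc8a2 fell by 0.72 within the low-Pcp2 arrays (change -0.72, adjusted p = 0.0375). Among all 10315 genes, by brightest probe set, 192 rose and 605 fell in the block fit and 642 rose and 932 fell within the low-Pcp2 arrays.

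Within the sets the members formed 2 groups of similar profile. With values centred in each set, over 20 arrays, Hpca, Hpcal4, Ncald and Ncs1 correlated with one another at 0.60 to 0.89, the highest being Hpca with Hpcal4. Hpcal1 correlated with Calb1 at 0.91, Pvalb with Calb1 at 0.75 and Hpcal1 with Pvalb at 0.63. Vsnl1 correlated with none of the others above 0.090. Ncs1 and Pvalb were at -0.56. Without centring, pairs across the split were as low as -0.95 (Hpca with Pvalb) and these carry the difference between the sets. The genes most like Hpca by centred correlation were Pde2a (0.93), Ctxn1 and Lzts1, and those most like Hpcal4 were Rimbp2 (0.96), Icam5 and Mmp17. Ncald was most like Aldh3b1 (0.95), Rimbp2 and Prickle2, Ncs1 like Mllt6 (0.93), Nf2 and Gna12, and Vsnl1 like Atp6ap2 (0.86), Aimp1 and Hnrnpa0. On the other side, Hpcal1 was most like Wdr77 (0.92), the cerebellar granule cell receptor gene Gabra6 (0.92) and Pcp2 (0.91). Pcp2 is the gene that made the sets, and its SD was 0.19 on the high-Pcp2 arrays and 2.11 on the low. Calb1 was most like Mcl1 (0.92), Hpcal1 and Aasdhppt, Pvalb like Dmac1 (0.89), Usp3 and Ufsp2, and Calb2 like Oard1 (0.88), Mab21l1 and Cited4. The 20 points share their sets, groups and differences in RNA quality, so these values describe likeness over these arrays and carry no p-value. Spread also differed between the sets, so 1 set can carry most of a correlation. The SD of Hpcal1 1372179_at was 0.22 on the high-Pcp2 arrays and 0.67 on the low. For Hpcal4 1379907_at it was 0.68 and 0.21, and for Pvalb 0.25 and 0.27.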

How the data were processed

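Biotin-labelled cRNA of 20 rats was hybridised to a rat expression array, 1 array a rat, per the labels' protocols. The deposited values are MAS5 signal, a linear intensity; the submitters' processing notes name MAS5 and Affymetrix Expression Console without versions, and detection calls were not used. A mean trimmed by 2% at each end was equal on all arrays. Values under 1 were set to 1 before log2. Of 31042 probe sets other than controls, those above the 40th percentile of mean signal (6.62 in log2) entered the tests, 18625 in number. Gene names are those of the platform annotation, and counts by gene used the brightest tested probe set.

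Isoflurane minus oxygen was tested in limma 3.58.1 (R 4.3.3; eBayes with trend, two-sided) with adjustment by Benjamini-Hochberg over all tested probe sets and 0.05 as the threshold. The 4 fits were all arrays with the Pcp2 array set as block, each array set alone, and the between-set difference. The code was tested on simulated data. Sample titles gave the groups and call the arrays biological replicates. Plots were made in matplotlib 3.10.9 (Python 3.11.15, numpy 2.4.6, pandas 2.3.3). How many arrays there are limits the precision.

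Members, array sets and all lists were chosen with earlier results of these data known. All members were named with every probe set. Of each other list, the gene with the largest set difference and the lowest p of each fit with a call were named, at most 3. Calm2 and Necab2 were added after their values were seen, to complete a count. For likeness the 3 highest correlations were named, leaving out genes with a placeholder symbol, such as those that begin with LOC or RGD. Alternatives changed the scaling, pseudocount, filter, eBayes, array weights, a 3'/5' covariate (mean of beta-actin and GAPDH), blocks or arrays. The fits without the arrays of low top signals, and those without isoflurane replicate 10 beside replicates 2, 4, 5 and 6, were added after seeing the data.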

Additional observations from a re-analysis of the deposited data

Results flagged for a closer look

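In 68 groups of arrays (each member probe set in each set and group), 10 held an array far from the others by Dixon's criterion at the 95% level. Chance gives this in about 1 in 20 independent groups, but these groups share arrays and genes. The same share over all tested probe sets was not computed, so the count is not a result about the members. Isoflurane replicate 10 stood apart from the other 4 isoflurane arrays of the low-Pcp2 set in 6 of the 10 groups. It was high for Hpcal1 1372179_at (10.77 against 9.16 to 9.56) and 1369562_at (9.73 against 6.36 to 7.08), Ncald 1392581_at (10.35 against 8.27 to 8.50) and Ncs1 1387685_at (9.11 against 7.40 to 7.71). It was low for Hpcal4 1375765_at (10.82 against 11.34 to 11.50) and Ncs1 1374103_at (11.63 against 11.94 to 12.03). Isoflurane replicate 9 stood apart in the high-Pcp2 set, high for Hpcal4 1379907_at (10.64 against 9.05 to 9.30) and Ncs1 1374103_at (11.20 against 10.28 to 10.44) and low for Vsnl1 1368853_at (11.90 against 12.82 to 13.19). Oxygen replicate 6 was low for the untested Ncs1 1380492_at (0.98 against 4.73 to 5.72).

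The isoflurane difference differed between the array sets, by the test of that difference itself, for Hpcal4 1375765_at (-1.40 ± 0.39 SE, adjusted p = 0.0267) and Hpcal4 1387639_at (-1.33 ± 0.41 SE, adjusted p = 0.0419). All 5 isoflurane arrays lay below the oxygen mean in the high-Pcp2 set and all 5 above it in the low-Pcp2 set for both probe sets.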

How the results depend on the processing

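The 11 member probe sets whose ranges did not overlap between the array sets stayed 11 after quantile normalization, median centring, a pseudocount of 64 and the loss of any 1 array. Tests of isoflurane moved more, and beyond what a setting itself removes (arrays, probe sets) the cause was not tested. In the block fit, 1 member passed; 0 passed without the block, without a filter, without isoflurane replicates 2, 4, 5 and 6 (also with 10 left out), 2 with median centring, a filter at the 60th percentile or the 3'/5' covariate, 3 with array weights and 4 without the arrays of lowest top signals. Leaving out single arrays gave 0 to 3. Within the high-Pcp2 arrays, where 0 passed, 4 passed with array weights and 4 without the arrays of lowest top signals, and 0 to 3 with single arrays left out. Within the low-Pcp2 arrays, where 4 passed, the count was 2 for eBayes without trend or no filter, 8 with array weights, 1 with the 3'/5' covariate and 0 to 8 with single arrays left out. For the difference between sets, where 2 passed, it was 6 with median centring, 8 with array weights, 1 with a filter at the 60th percentile, 0 with the 3'/5' covariate or without isoflurane replicates 2, 4, 5 and 6, and 0 to 8 with single arrays left out. Over all probe sets the block count of 1372 was 74 without the block, 0 without isoflurane replicates 2, 4, 5 and 6 (3016 at an unadjusted p under 0.05 in limma; 0 and 2269 with replicate 10 left out too), and 480 to 2938 with single arrays left out. The block count was also 915 of 31042 without a filter and 1396 of 12417 with a filter at the 60th percentile. With median centring it was 1479, with the 3'/5' covariate 1712 and with array weights 1875. Without the arrays of lowest top signals it was 1703. The high-Pcp2 count of 0 was 1075 with array weights, 405 without the arrays of lowest top signals and 0 to 1086 with single arrays left out. The low-Pcp2 count of 3469 was 3113 for eBayes without trend and 3880 of 31042 without a filter. It was 5249 with median centring, 6787 with array weights, 1111 with the 3'/5' covariate and 1606 to 6266 with single arrays left out. The between-set count of 1897 was 3902 with median centring, 5815 with array weights and 104 with the 3'/5' covariate. It was 1037 with a filter at the 60th percentile and 13 without isoflurane replicates 2, 4, 5 and 6. Without the arrays of lowest top signals it was 728, and with single arrays left out 1109 to 4303. Median centring moved the median of all probe sets by -0.075 in the block fit, by -0.21 within the low-Pcp2 arrays and by 0.24 in the between-set test.

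Same-numbered replicates correlated at -0.26 to 0.23, so the numbers were not taken to pair the rats. With the replicate number as a block, 0 members and 29 probe sets passed in the block fit, and 1 member and 1129 probe sets in the between-set test, where Vsnl1 1368853_at turned to -0.54 and Ncs1 1374103_at to 0.14.

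No value that turned its sign was past the threshold. In the block fit without isoflurane replicates 2, 4, 5 and 6, Hpcal1 1369562_at was 0.33, Hpcal1 1372179_at 0.096, Calb1 0.20, Calb2 0.31 and Ncald 1392581_at 0.21, and with replicate 10 left out too they were 0.12, 0.026, 0.15, 0.10 and 0.067. Without the array set as a block, Pvalb was -0.12 and Hpcal4 1375765_at 0.18. Within the high-Pcp2 arrays Vsnl1 1368854_at was -0.036 after quantile normalization, and with the 3'/5' covariate Hpcal1 1369562_at was -0.0058, Calb2 -0.0029 and Ncald 1392581_at -0.18. Within the low-Pcp2 arrays median centring gave -0.029 for Vsnl1 1368853_at and -0.097 for Ncs1 1396382_at, and the 3'/5' covariate 0.22 for Pvalb. In the between-set test the 3'/5' covariate gave -0.33 for Vsnl1 1368853_at, -0.045 for Pvalb, 0.16 for Ncs1 1374103_at and -0.090 for Ncald 1392581_at. Median centring gave 0.17 for Vsnl1 1368854_at, 0.099 for Ncs1 1374103_at and 0.11 for Ncs1 1396382_at. Without isoflurane replicates 2, 4, 5 and 6 that test gave 0.22 for Vsnl1 1368854_at, -0.96 and -0.31 for Hpcal1 1369562_at and 1372179_at, -0.19 for Calb1, -0.29 for Pvalb, 0.14 for Ncs1 1374103_at, -0.12 for Ncs1 1387685_at, -0.93 for Calb2 and -0.62 for Ncald 1392581_at. Without the arrays of lowest top signals Hpca was -0.18.

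Signal over background limits Calb2 on the low-Pcp2 arrays and Ncs1 1380492_at. It also limits Hpcal4 1387639_at on the high-Pcp2 arrays (6.10 to 7.60). The same holds for Hpcal1 1369562_at on isoflurane replicates 2, 4, 5 and 6 (6.36 to 7.08). Detection was not assessed for any probe set. MAS5 scaling sets every array to 1 mean, so levels are relative.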
